A study of Homo sapiens with 8 samples.

Results

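The genes that encode the proteins of the cytosolic ribosome were followed between 2 fractions of the nucleus of HAP1 cells. Protein-coding genes were taken by symbol (RPL or RPS and a number, with an optional A, X, Y or L at the end, and RPLP0, RPLP1, RPLP2 and RPSA). Of 81 genes with such a symbol in GENCODE release 44 on hg38, 63 could be measured by themselves and formed the set, 39 of the large and 24 of the small subunit, among 26066 tested genes of which 12493 were protein-coding. A locus of the deposited table entered the set when its span and that of the gene on the same strand had a Jaccard index (shared bases over all bases covered by either) of at least 0.5 and when 3 or more short-read libraries reached 10 normalized counts. RPL3L met this minimum with 13.2 to 22.1 normalized counts in chromatin against 3.38 to 10.3 in nucleoplasm, so it passed through the fraction in which it was higher and its values are given without a test, and each of the other members stayed at or above 244 normalized counts in every library.

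HAP1 is a near-haploid human cell line of leukemic origin, and all libraries came from this 1 line, with no treatment named. Nuclei were treated with urea (0.5 M) and a detergent (NP-40 substitute, 0.5%) and centrifuged, so that the pellet was the chromatin fraction and the soluble part was the nucleoplasm fraction. The 8 libraries formed 3 groups: 3 short-read libraries of chromatin RNA and 3 of nucleoplasm RNA, from 3 independent cultures, and 2 long-read libraries of chromatin RNA. All RNA was depleted of ribosomal RNA and carried ERCC standards, which are synthetic RNAs. Short reads were strand-specific single reads of 50 bases, and long reads were direct cDNA of RNA that had been tailed with poly(A) by enzyme.

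Depth was 38895027 to 43804918 recovered reads in the chromatin libraries and 75737601 to 79523938 in the nucleoplasm libraries. The fractions were assigned from the sample titles because another label names chromatin for every library. MALAT1, a nuclear noncoding RNA that stays with chromatin, had a log2 fold change of 3.09 for chromatin over nucleoplasm (called the log2 ratio from here on), and the mRNAs of GAPDH and B2M had -2.35 and -2.11. BCR and ABL1, the genes joined in the fusion that marks the parent leukemia, were both detected (697 to 1437 and 906 to 1470 normalized counts). The blood cell genes PTPRC and SPI1 were at 0 in every library, and CD33 and CD34 did not exceed 4.39 normalized counts.

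A ribosome holds 1 copy of most of its proteins, and cells make them in matched amounts from genes on many chromosomes. Their mRNAs are short, very abundant and stable, and most start with a run of pyrimidines, the 5′ terminal oligopyrimidine (TOP) motif, through which translation is switched with growth conditions. Many of the genes also carry small nucleolar RNAs (snoRNAs) in their introns, which guide the modification of ribosomal RNA, and have many processed pseudogenes, which are copies of the mRNA elsewhere in the genome.

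The start of transcription is shown for members at both ends of the fold change range, because the TOP motif lies there. Each sequence runs from 30 bases before to 20 bases from the annotated start, on the strand of the gene, in RefSeq on GRCh38.p14. Capitals mark the longest unbroken run of C and T that overlaps the window from 5 bases before to 10 bases after the start. RPS21 (chr20:62387073-62387122, plus strand), RPL27 (chr17:42998389-42998438, plus), RPS18 (chr6:33272045-33272094, plus), RPL35 (chr9:124861938-124861987, minus), RPL11 (chr1:23691776-23691825, plus) and RPS16 (chr19:39435930-39435979, minus) were far lower in chromatin. RPL10 (chrX:154398347-154398396, plus), RPL28 (chr19:55385902-55385951, plus), RPL37A (chr2:216498814-216498863, plus) and RPS27L (chr15:63157458-63157507, minus) differed little between fractions.
RPS21: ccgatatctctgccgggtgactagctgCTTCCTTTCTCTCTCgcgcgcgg
RPL27: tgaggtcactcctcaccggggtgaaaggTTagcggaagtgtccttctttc
RPS18: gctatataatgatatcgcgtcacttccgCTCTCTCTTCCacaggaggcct
RPL35: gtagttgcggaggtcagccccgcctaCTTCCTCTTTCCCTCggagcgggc
RPL11: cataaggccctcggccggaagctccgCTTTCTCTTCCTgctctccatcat
RPS16: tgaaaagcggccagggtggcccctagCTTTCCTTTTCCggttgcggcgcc
RPL10: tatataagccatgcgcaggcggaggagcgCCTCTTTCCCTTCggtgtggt
RPL28: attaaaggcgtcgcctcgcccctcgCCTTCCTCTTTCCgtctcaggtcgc
RPL37A: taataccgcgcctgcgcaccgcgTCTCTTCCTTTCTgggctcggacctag
RPS27L: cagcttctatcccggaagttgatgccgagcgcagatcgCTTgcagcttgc

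Of the 63 members, 49 had an entry in the RefSeq table of start regions, and 39 of these (79.6%) had a run of at least 8 pyrimidines, against 2605 of 15345 protein-coding genes (17.0%). The median run was 11 bases among members and 4 among all protein-coding genes. Members with such a run had a median log2 ratio of -2.32 (range -3.47 to -0.11) and the 10 with a shorter run had -2.21 (range -2.96 to 0.03). Both groups thus covered nearly the whole range: RPL37A, among the members with the smallest difference between fractions, has a run of 13 bases at its start, and RPL27, among those with the largest, has one of 2 bases. The printed RPL27 sequence also ends in an unbroken pyrimidine run (tccttctttc), which starts just past the searched window and was not counted. Its place among the shorter runs thus rests on the annotated start. The 10 members with a shorter run were RPL3, RPL6, RPL12, RPL15, RPL27, RPL32, RPL36, RPS4X, RPS27L and RPS29. The run is a description of the letters in this window only, and its longest form need not begin at the base where transcription starts in these cells.

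Ribosomal protein RNA was lower in chromatin than in nucleoplasm for nearly the whole set. Of the 63 members, 41 (65.1%) were called in nucleoplasm, that is, at an adjusted p under 0.05 and more than 4-fold apart in limma, where the share among all tested genes was 8.47% and among tested protein-coding genes 5.72%. None was called in chromatin with limma, edgeR or DESeq2 (21.2% of all tested genes and 3.94% of protein-coding genes were, with limma). At an adjusted p under 0.05 and any fold, 60 members were lower in chromatin (45.2% of all tested and 57.5% of protein-coding genes). The members RPL37A and RPS27L did not pass. The remaining member, RPL3L, had higher values in chromatin, but it had passed the filter through that fraction, so this is not a test result. Of all tested genes 44.2% were higher, and of protein-coding genes 30.2%. The median log2 ratio was -2.32, with quartiles of -2.65 and -1.77, where the median was -0.02 over all tested genes and -0.39 over protein-coding ones. Both fractions come from nuclei of the same cultures, so the log2 ratio compares the level of an RNA between fractions and not between cells. How its division varies from cell to cell cannot be seen in these bulk fractions.

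**Figure D1:**
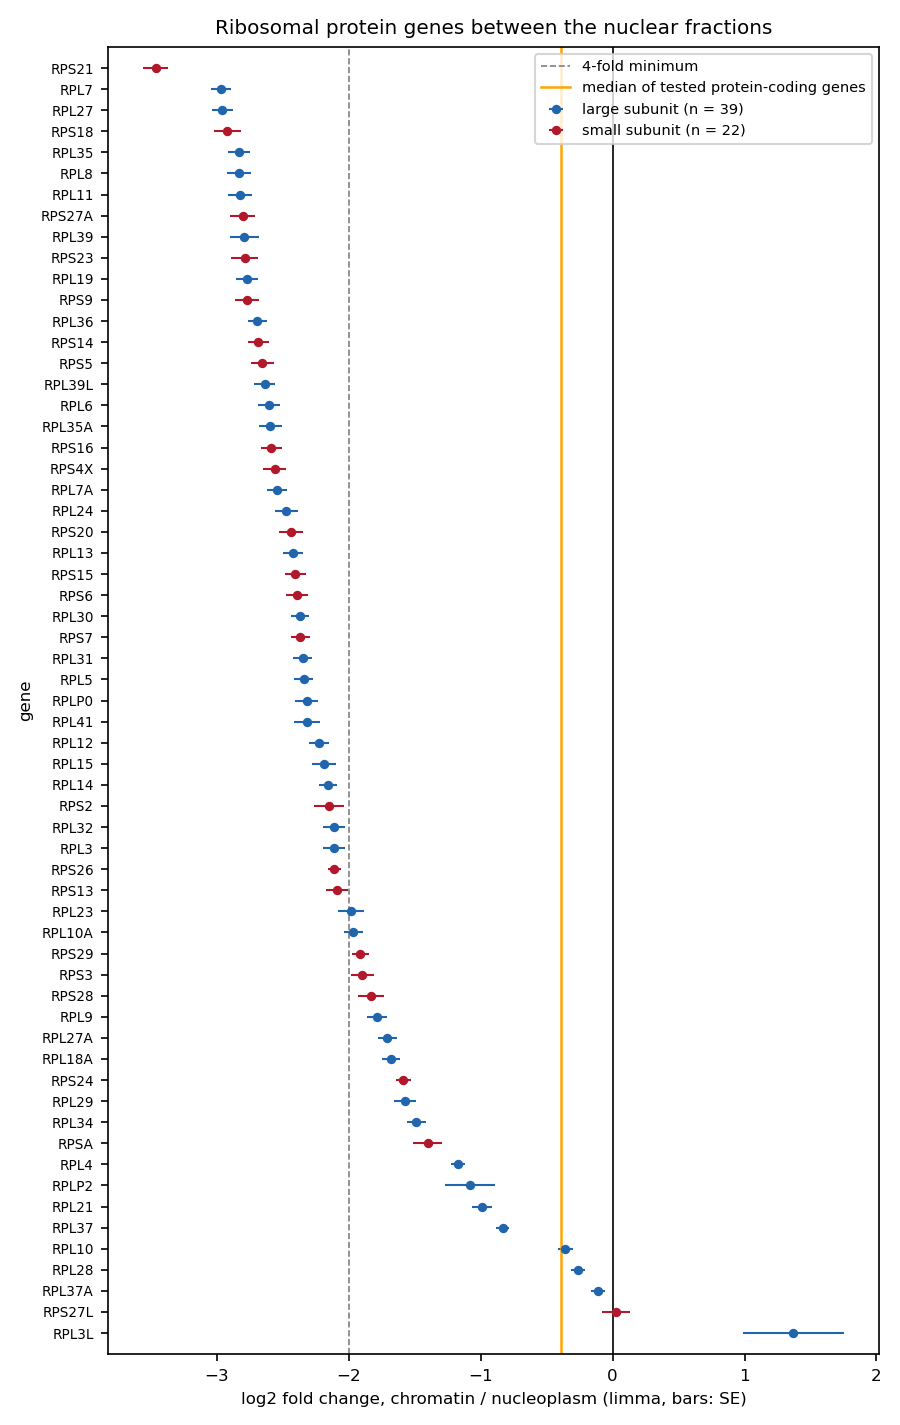
Log2 fold change of chromatin over nucleoplasm for 61 of the 63 members (x axis) in the order of its size (y axis, gene), with the SE from limma as bars, in blue for large and in red for small subunit genes. Nearly all points lie left of the protein-coding median of -0.39, from RPS21 at -3.47, while RPL10, RPL28, RPL37A, RPS27L and RPL3L lie right of it and are also the 5 that are above 0 when every library is set to the same total.

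The values of single libraries showed the same split. In 61 of the 63 members every chromatin library was below every nucleoplasm library (46.0% of all tested genes), in RPL3L every chromatin library was above (44.6% of all tested genes), and in RPS27L the fractions overlapped. Summed over members, normalized counts were 1.08%, 1.00% and 1.19% of the library in chromatin and 3.32%, 3.35% and 3.40% in nucleoplasm. The mean share was thus 1.09% ± 0.0924 against 3.35% ± 0.0385 (SD, n = 3 each), a ratio of 3.08. The subunits were close to each other, with a median of -2.22 and 24 of 39 genes called for the large and -2.40 and 17 of 24 for the small subunit.

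**Figure D2:**
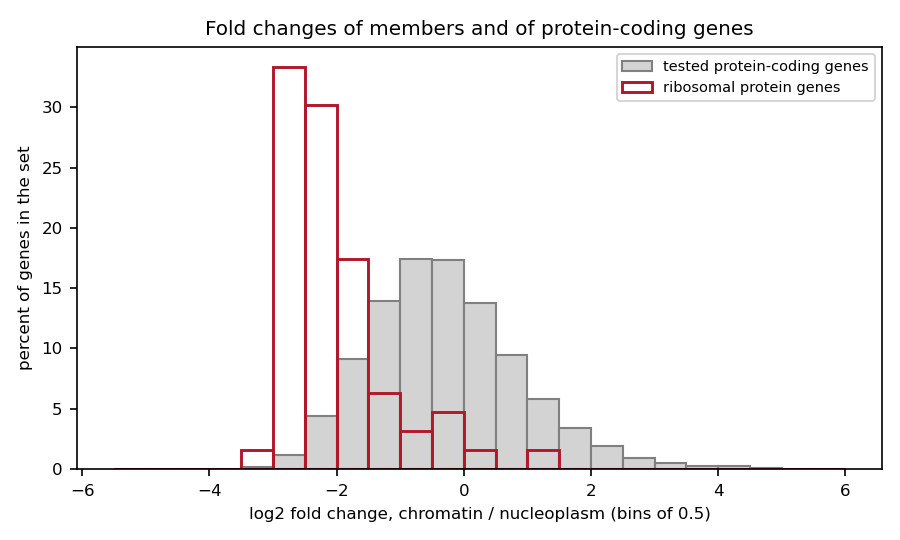
Percent of genes (y axis) in each bin of 0.5 of the log2 fold change (chromatin / nucleoplasm) (x axis), for the 63 members (red outline) and the 12493 tested protein-coding genes (grey). The bin from -3 to -2.5 holds 33.3% of the members and 1.17% of the protein-coding genes.

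The size of these differences depended on how the fractions were scaled against each other. With every library set to the same total, the median over all tested genes moved to 0.44, the median of the members to -1.86, and 23 members were called in nucleoplasm (3.83% of all tested genes), with 58 lower and 4 higher in chromatin at any fold. With every library set to the same ERCC total, the medians were -1.33 over all genes and -3.64 over members, and 58 were called in nucleoplasm (34.5% of all tested genes), with 62 lower and 0 higher. A factor per library moves all genes alike, so the member median minus that of protein-coding genes (-1.93) is fixed by construction apart from the pseudocount. Of the calls over all genes, 71.5% were higher in chromatin with the deposited scaling, 87.0% with the same total and 25.9% with the same ERCC total. Without the fold minimum, these shares were 49.4%, 61.3% and 25.9%.

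The member with the largest difference was RPS21, a short protein of the small subunit. Its locus (chr20:62387103-62388520, plus strand) had 2276, 1729 and 2108 normalized counts in chromatin against 21784, 22493 and 22850 in nucleoplasm. That is a log2 ratio of -3.47 (SE 0.09, limma, adjusted p = 1.14e-08) or 11-fold, with no overlap between fractions. RPS21 is also among the members easiest to assign, since 1.5% of the 50-base windows of its coding sequence occur elsewhere in the genome.

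RPL7, a large subunit protein with a domain that binds RNA, had 5791, 4787 and 5855 normalized counts in chromatin against 42296, 42383 and 43685 in nucleoplasm, a log2 ratio of -2.97 (SE 0.08). RPL27 had 4515, 3665 and 4461 against 31711, 32199 and 34009, a log2 ratio of -2.96 (SE 0.08). Both genes were well separated between fractions, but 99.7% of the coding windows of RPL7 occur elsewhere in the genome, against 5.01% for RPL27. RPS18, a protein of the head of the small subunit close to the tRNA sites, had 6202, 4694 and 6200 against 41721, 42352 and 44408 (log2 ratio -2.92, SE 0.10). RPL35, which lies beside the exit of the peptide tunnel, had 4612, 3719 and 4500 against 29541, 29913 and 31790 (-2.84, SE 0.08). The last of the 6 lowest, RPL8, is a protein near the peptidyl transferase centre and had 13013, 10227 and 12518 against 82136, 84310 and 86965 (-2.83, SE 0.09). In these 6 genes chromatin replicate 2 was the lowest library each time. This is not particular to them, since it was also the lowest in other members such as RPL3, RPLP0 and RPS6. It was not the lowest in RPL10, RPL37A and RPS27L.

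**Figure D3:**
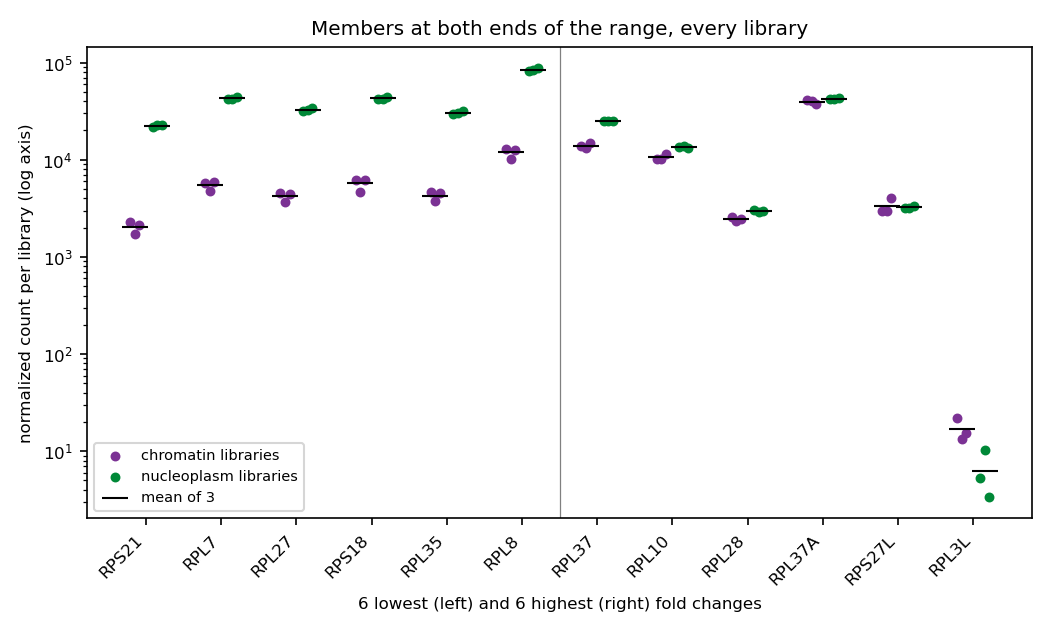
Normalized counts (y axis, log scale) in each of the 3 chromatin (purple) and 3 nucleoplasm (green) libraries for the 6 members with the lowest and the 6 with the highest log2 fold change (x axis), with the mean of 3 as a bar. The left genes are separated by 7.12-fold (RPL8) to 11-fold (RPS21), and on the right the fractions come close in RPL10, RPL28 and RPL37A, overlap in RPS27L, and are higher in chromatin in RPL3L.

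At the other end of the range stood RPL37, RPL10, RPL28, RPL37A, RPS27L and RPL3L. RPL37A, a zinc-binding protein of the large subunit, had 40820, 40039 and 37301 normalized counts in chromatin against 42068, 42378 and 43244 in nucleoplasm. Its log2 ratio was -0.11 (SE 0.05, limma, adjusted p = 0.0716), or 0.35 with every library set to the same total. In chromatin RPL37A had the highest normalized count of all members, above RPS3 and RPL4 (means of 39387 against 20651 and 20171), although these are counts per gene and not per length. Only 4.41% of its coding windows occur elsewhere, and its locus (chr2:216498825-216579180, plus strand) has the longest span of the set.

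RPL28, another large subunit protein, had 2577, 2339 and 2443 normalized counts in chromatin against 3022, 2862 and 2939 in nucleoplasm, without overlap (log2 ratio -0.26, SE 0.05, limma, adjusted p = 0.00115). RPL10, which joins the large subunit late and lies near the P site, had 10068, 10114 and 11424 against 13464, 13679 and 13350, also without overlap (-0.36, SE 0.06, adjusted p = 0.000344 in limma). Of the coding windows of RPL10, 82.1% occur elsewhere in the genome, so its value is uncertain for that reason as well. The direction of RPL28 and RPL10 rests on the scaling, since their log2 ratios were 0.20 and 0.10 with the same total per library. RPL37, a further zinc-binding protein of the large subunit, had 13847, 13288 and 14829 against 24896, 24962 and 24941 (-0.84, SE 0.05), and stayed lower in chromatin with the same total (-0.37).

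RPS27L and RPL3L are paralogs of core ribosomal proteins, and they were the members with a log2 ratio above 0 under the deposited scaling. RPS27L, a target of p53, had 2984, 2988 and 3990 normalized counts in chromatin against 3207, 3166 and 3315 in nucleoplasm. Chromatin replicate 3 was above all nucleoplasm libraries and the other chromatin libraries were below them. Its log2 ratio was 0.03 (SE 0.11, limma, adjusted p = 0.819), and it was -0.11 without chromatin replicate 3, 0.49 with the same total and -1.30 with the same ERCC total. RPL3L, whose protein replaces RPL3 in heart and skeletal muscle, had 22.1, 13.2 and 15.4 against 5.27, 10.3 and 3.38 normalized counts. These are 19, 11 and 14 against 6, 12 and 4 recovered reads, so the log2 ratio of 1.37 (SE 0.38) rests on few reads, and it was 0.18 with the same ERCC total. It passed the filter through chromatin alone, so no p is given for it.

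RPL3L and RPL39L had far lower levels than the core proteins they resemble. RPL3, a core protein next to the peptidyl transferase centre, had 19830 ± 2273 in chromatin against 85303 ± 1207 in nucleoplasm (normalized counts, mean ± SD of 3 libraries each), with a log2 ratio of -2.11. RPL39, a small protein of the peptide tunnel, had -2.79, and RPL39L, its paralog best known from testis, had 292, 244 and 249 against 1575, 1624 and 1694 normalized counts and a log2 ratio of -2.64. Per kb of canonical transcript, RPL39 was at 8451 and 57985 normalized counts and RPL39L at 359 and 2237. None of the coding windows of RPL39L occur elsewhere, while all of those of RPL39 do. RPL10L, an intronless testis paralog of RPL10, had 0 normalized counts in every chromatin library and a mean of 0.579 in nucleoplasm and was too low to test. RPS4X, the X-linked form of RPS4, had -2.56.

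Among proteins grouped by role, the stalk of the large subunit, which recruits translation factors, was not uniform. RPLP0, its base, had 19007, 15952 and 20352 normalized counts in chromatin against 91512, 89622 and 93639 in nucleoplasm, a log2 ratio of -2.32 that is also the median of the set. RPLP2, which binds RPLP0 as a pair with RPLP1, had 2558, 2373 and 4233 against 6436, 6180 and 6167, a log2 ratio of -1.08 (SE 0.19). Chromatin replicate 3 was the high library of RPLP2, and the value was -1.35 without it. RPL5 and RPL11, which form the 5S particle with 5S ribosomal RNA and bind MDM2, had -2.34 (SE 0.07) and -2.82 (SE 0.09), with 9636, 7535 and 9504 against 62573, 61824 and 63202 normalized counts for RPL11. RPL4, whose loop lines the peptide tunnel, had 20634, 18942 and 20936 against 47007, 44863 and 44384, a log2 ratio of -1.17 that did not reach the fold minimum.

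In the small subunit, RPS6, the target of the S6 kinases, had 15209, 12806 and 16080 normalized counts in chromatin against 76623, 75019 and 78672 in nucleoplasm (log2 ratio -2.39, SE 0.08). RPS14, lost in the 5q- form of myelodysplasia, had -2.69 (SE 0.08), and RPS27A, made as a fusion with ubiquitin, had -2.81 (SE 0.10). RPS26, which sits at the mRNA exit, had -2.11 (SE 0.05), and all of its coding windows occur elsewhere in the genome. RPSA, also known as a laminin receptor, was less far apart, with 16793, 15039 and 21073 against 45697, 45010 and 47901 normalized counts and a log2 ratio of -1.40 (SE 0.11). RPS13 (-2.09) was the last member past the 4-fold minimum and RPL23 (-1.98) the first short of it.

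To ask which members stood apart from the set, each gene was fitted relative to the median of the members in the same library. The reference was the median level of the members in each library, which is not the median of their log2 ratios. It lay near the log2 ratio of RPS2 (-2.15, a difference of -0.01), while RPLP0, at the median log2 ratio of -2.32, had a difference of -0.17. Counts above and below it therefore rest on this choice. In that fit 55 of 63 members had an adjusted p under 0.05 (92.8% of all tested genes did), 22 of them above the reference and 33 below. Only 8 were more than 2-fold above it, where 76.0% of all tested genes were. They were RPLP2 (a difference of 1.06 on the log2 scale), RPL21 (1.16), RPL37 (1.31), RPL10 (1.79), RPL28 (1.89), RPL37A (2.04), RPS27L (2.17) and RPL3L (3.52). RPL3L is counted in the 55, the 22 and the 8, but it passed the filter through chromatin, so its place there is not a test result. Without it, the adjusted p of these members ran from 6.41e-08 to 0.000202 in limma. RPLP2 had 0.86 without chromatin replicate 3 and so fell short of 2-fold. RPS21 alone was more than 2-fold below, by 1.32 on the log2 scale (adjusted p = 1.51e-07 in limma), where 0.668% of all tested genes were. These differences do not depend on how the fractions were scaled against each other, because any factor of a library cancels, apart from the pseudocount.

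Not all ribosomal protein genes could be placed. Besides RPL10L, 17 lay in a locus of the table whose span shared too little with the gene (Jaccard index of 0.03 to 0.45). Among them were RPL13A, RPL17, RPL18, RPL22, RPL23A, RPL26, RPL36A, RPL38, RPLP1, RPS3A, RPS10, RPS12, RPS15A, RPS19, RPS25 and RPS27. Such a locus can hold reads of more than 1 gene, as where RPL22 lay in one with CHD5 and RPLP1 in one with KIF23, so its values are not those of the ribosomal protein alone. All 17 loci, 1 for each gene, were lower in chromatin. Their median log2 ratio was -1.90, with a range from -2.82 (the locus of RPS25) to -0.44 (that of RPLP1). Of the 17, 6 were called in nucleoplasm, where 8.47% of all tested genes were. These loci do not show every value that can be given to such genes. With a minimum Jaccard index of 0.2 (67 genes), 1 gene was called in chromatin, against 0 of the 63 members. That gene is not identified here. The locus with RPS19, the gene most often mutated in Diamond-Blackfan anemia, had -2.15, that with RPL13A -2.23, that with RPL22 -1.98, that with RPL36A -1.56 and that with RPS27, the partner of RPS27L, -1.57.

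Levels were compared between genes per kb of the canonical transcript. By the mean over the 6 libraries the 4 highest included RPS16 and RPLP0. RPS16, whose tail reaches the P site, had 15951 normalized counts per kb in chromatin and 95550 in nucleoplasm, and RPLP0 had 16685 and 82888. Their log2 ratios were -2.59 and -2.32. The lowest were RPL3L (7.88 and 2.95), RPS27L (543 and 529), RPS28 (417 and 1475) and RPL28 (583 and 699). RPS28, a protein of the mRNA exit, had 644, 514 and 504 against 1821, 2069 and 1997 normalized counts and a log2 ratio of -1.83. Some canonical transcripts are annotated with long ends (6110 bases for RPS27L, 4209 for RPL28 and 7573 for RPL37), which lowers a value per kb. Per kb of coding sequence, RPL28 had 5969 and 7156 normalized counts, RPL37A 142705 and 154215, and RPS16 22979 and 137654. These values divide all reads of a locus by its coding length alone, which raises genes with long ends. RPL37A has 276 coding bases in a canonical transcript of 2992, and per kb of that transcript it was not among the 4 highest.

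The median member with a long locus was closer to equal between fractions than that with a short one. The 24 with a span over 10 kb had a median log2 ratio of -1.84 with 10 called, and the 39 with a shorter span had -2.39 with 31 called. Across the 63 genes, the fold change and log10 of the span had Pearson's r = 0.39 and Spearman's rho = 0.32, and the log10 of the canonical transcript length had 0.46 and 0.34. Genes are not independent replicates and share the 6 libraries, so these are descriptions. Among the longest loci, RPL37A (80356 bases), RPS27L (32150) and RPL4 (35875) were close to the top of the range of log2 ratios, while RPL39L (59961) and RPS9 (48195) had -2.64 and -2.77. In long loci, reads of introns and of overlapping transcripts on the same strand are counted with the mRNA, and their part in the result was not tested.

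**Figure D4:**
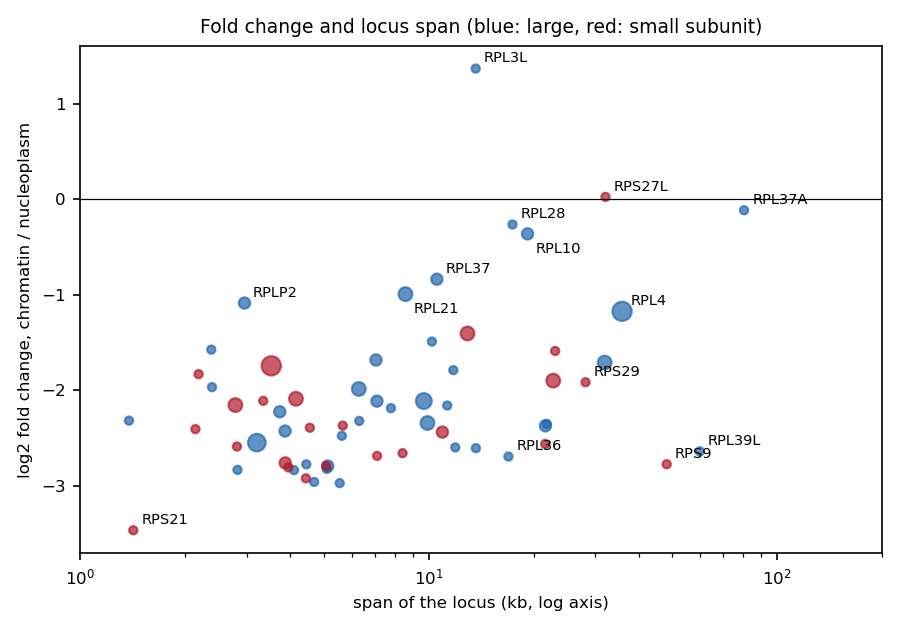
Log2 fold change of chromatin over nucleoplasm (y axis) against the span of the locus in kb (x axis, log scale) for the 63 members, blue for the large and red for the small subunit, with point size growing with the number of snoRNA genes inside the gene. RPS21 lies at the short and low end, and RPL10, RPL28, RPS27L and RPL37A lie among the longer loci near 0, with RPL39L and RPS9 as long loci that are low.

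Host genes of snoRNAs also had a median closer to 0. In all, 23 members held 44 annotated snoRNA genes on their strand, with 5 in RPL4. Their median log2 ratio was -2.09 with 12 of 23 called, against -2.44 with 29 of 40 called for members without any (8.47% of all tested genes). The number of snoRNA genes and the fold change had r = 0.15 and rho = 0.34 across the 63 genes. The members with the highest log2 ratios, RPL28, RPL37A, RPS27L and RPL3L, hold none. All 23 were lower in chromatin with the deposited scaling, from RPL39 (host of SNORA69, -2.79) to RPL10 (host of SNORA70, -0.36), and RPLP2 hosts SNORA52. The table counts reads per locus, so reads of a snoRNA are not set apart from those of its host.

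The processed copies of these genes in the genome set a limit on single values. GENCODE lists 1154 pseudogenes whose symbols are built on those of the members, with 133 for RPL21, 80 for RPL7A and 74 for RPSA. In 27 members 50% or more of the 50-base windows of the coding sequence occur elsewhere in the genome, so that a read can fit several places, and in 11 members it is under 5%. The 19 members under 20% had a median log2 ratio of -2.60 (quartiles -2.73 and -0.96) with 13 called. The 14 members at 80% or more had -2.15 (quartiles -2.55 and -1.71) with 8 called, where 8.47% of all tested genes were. The share of such windows and the fold change had r = -0.07 and rho = 0.11 across the 63 genes. The number of pseudogenes and the fold change had r = 0.00 and rho = -0.02. RPL21, with all of its coding windows found elsewhere, had 9519, 8587 and 10768 against 18669, 18893 and 19610 normalized counts (log2 ratio -0.99), and its value is uncertain for that reason.

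In the chromatin long reads, all 63 members were above 0 in at least 1 of the 2 libraries and 59 in both. They summed to 19064 and 19946 TPM (transcript abundance relative to all transcripts of the library), or 1.91% and 1.99% of the library, with medians of 277 and 283 TPM. The 5 highest were RPS16 (927 and 1456 TPM), RPS29 (760 and 1064), RPL35 (630 and 1180), RPL39 (836 and 941) and RPL9 (731 and 752). RPL35 and RPL39 were also among the 9 members lowest in chromatin relative to nucleoplasm. RPS29, a zinc-binding protein of the small subunit, had a log2 ratio of -1.91, and RPL9 had -1.79. No test was made on 2 libraries of 1 group.

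**Figure D5:**
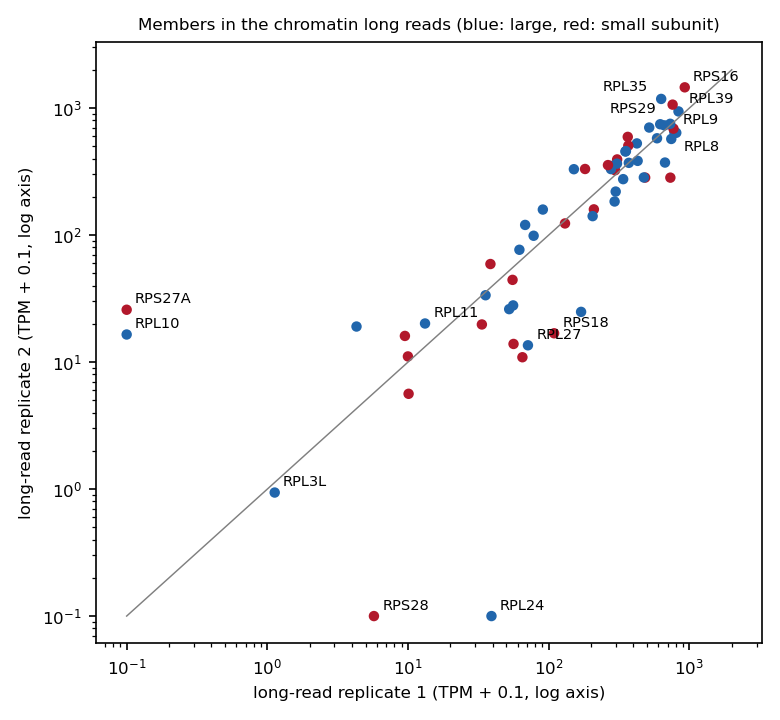
TPM + 0.1 of each of the 63 members in long-read replicate 1 (x axis, log scale) and replicate 2 (y axis, log scale), blue for the large and red for the small subunit, with the line of equal values. Most members lie along the line above 20 TPM, and RPS27A, RPL10, RPL24 and RPS28 are at 0 in 1 of the libraries.

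The long-read libraries ranked the members alike but differed for single genes, with r = 0.74 and rho = 0.91 on log2(TPM + 0.1) over the 63 genes. RPS27A was at 0 and 25.7 TPM, RPL10 at 0 and 16.4, RPL24 at 39.1 and 0, and RPS28 at 5.62 and 0, while 10 further members were over 2-fold apart. The paper reports unequal read numbers for these libraries, and the part of depth in such differences was not tested. RPL10 had 10068 to 11424 normalized counts in the short-read chromatin libraries, but 82.1% of its coding windows occur elsewhere in the genome. Why short and long reads differ for RPL10 was not tested. With log2 of the short-read level per kb, the mean long-read level had r = 0.59 in each chromatin library and 0.56 in each nucleoplasm library.

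By annotated transcript, members had more of their long-read TPM assigned to forms that are not the canonical mRNA. The paper reports that direct cDNA reads lose their strand and names low coverage and internal priming as possible sources of truncated transcripts. Some retained-intron entries cover only part of the gene, such as ENST00000473638 of RPL3. The assembly also used an earlier GENCODE release. Whether the RNA retains introns was therefore not tested. Of their TPM in reference transcripts, 26.6% and 23.7% fell in transcripts annotated as retaining an intron, against 14.3% and 13.9% for all other protein-coding genes. The canonical transcript held 30.6% and 27.8%, against 45.1% and 46.5%, and 39 members had no TPM in it. For RPL8, all TPM were assigned to transcripts annotated as retaining an intron (743 and 571), most of it to ENST00000526668 (616 and 523). RPS16 was the reverse, with 829 and 1185 TPM in its canonical transcript. In RPL19 the form differed between libraries, with 604 TPM in a retained-intron and 14.4 in a coding transcript in replicate 1 and 71.8 and 662 in the same transcripts in replicate 2.

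Among other genes of the ribosome and its assembly, only the ribosomal proteins with other symbols had a median as low as that of the members. Over all tested protein-coding genes, 57.5% were lower and 30.2% higher (median -0.39), and the lists are read against these shares. Of the proteins with other symbols, all 5 tested were lower in chromatin (median log2 ratio -2.41), with RPL36AL at -2.87, RPL26L1 at -2.86, RACK1 at -1.54 and RPL22L1 at -0.51, while FAU, RPL7L1 and RPS4Y1 were not tested. Among 24 tested genes of snoRNA particles and nucleolar processing, 20 were lower, 3 higher and 1 did not pass (median -1.16), from NHP2 at -2.67 and SNU13 at -2.46 to NOP56 at 0.95 and WDR43 at 0.97. Of 18 genes of large subunit assembly and export, 14 were lower and 2 higher (median -0.62), from SBDS at -1.72, which helps to free the new subunit of eIF6, to HEATR3 at 0.55. All 10 genes of small subunit assembly were lower (median -0.63), from NOC4L at -1.94 to BYSL at -0.16.

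In the machinery of RNA polymerase I, which makes the ribosomal RNA, 9 of 14 tested genes were lower and 4 higher (median log2 ratio -0.81), against 57.5% and 30.2% of protein-coding genes, with values from POLR1H at -2.36 to TAF1D at 1.82. Of 10 regulators of ribosomal protein promoters and of TOP mRNAs, 8 were lower and 2 higher (median -0.62), with RPS6KB2, an S6 kinase, at -0.77 and MAX at 0.27. Genes of these lists with values between -0.46 and 0 lie within the shift between the deposited scaling and the same total per library, and the higher ones, apart from TAF1D, lie within that to the same ERCC total (1.32), so their direction turns with the scaling.

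RNA made outside the nucleus, in mitochondria, was mostly lower in chromatin as well. The 9 tested mRNAs of the mitochondrial genome had a median log2 ratio of -1.45 (8 lower, 0 higher), from MT-CO1 at -2.0 to MT-ND6 at 0.11, and summed to 74350 to 84684 normalized counts in chromatin against 223142 to 260881 in nucleoplasm. The mitochondrial chromosome took 0.467% ± 0.0544 of the chromatin and 1.11% ± 0.0944 of the nucleoplasm libraries (SD, n = 3 each), a ratio of 2.37 where that of the members was 3.08. The part of cytoplasmic RNA in the member values was not tested.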

How the data were processed

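RNA of HAP1 nuclear fractions was measured in 6 short-read and 2 long-read libraries. For short reads, the authors used HISAT2 2.1.0 on hg38, StringTie assembly merged over fractions, counts derived from coverage, and division by DESeq2 size factors, and the deposited values are this normalized signal per gene. For long reads, minimap2 and StringTie gave the deposited TPM per transcript, which holds no depth. Dividing each value by the smallest of its library gave whole reads for 100% of values (within 1e-06), so depth could be recovered, although reads derived from coverage are estimates.

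Loci were named by GENCODE release 44. Tested loci had at least 10 normalized counts in 3 libraries and a span over 200 bases. limma 3.58.1 (R 4.3.3) was fitted with a trend to log2(normalized count + 1) of the short-read libraries, with no covariate and Benjamini-Hochberg adjustment over all tested genes. Fold changes on this scale understate the change of low genes. A call needed an adjusted p under 0.05 and over 4-fold. A second fit used values minus the median of the members in the same library. On counts simulated from the nucleoplasm means (26066 genes, 200 changed by 3 on the log2 scale) limma recovered 200, edgeR 200 and DESeq2 193. The simulated noise was set alike for all genes and far fewer genes changed than here, so this does not give the recovery in these data. As alternatives, recovered reads were fitted with edgeR 4.0.16 or DESeq2 1.42.0, and the limma fit was run with pseudocounts of 0.5 and 5, other filters, scalings, name overlaps (0.2 and 0.8), a 2-fold minimum, the replicate number as a term, and leaving out each library. Coding windows of 50 bases were searched in hg38 on both strands.

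Members and lists were chosen with earlier results of these data known. Named with values were the 6 lowest and 6 highest fold changes, the 4 highest and 4 lowest levels per kb, the 5 highest long-read levels, genes picked by function, and paralogs with their partners. Other members were named after their values were seen. A few genes are not reported by name here. Replicates differed by more than sampling noise (chi-square per degree of freedom of 4.51 to 63.3). The short-read libraries came from separate cultures, and the study calls its replicates biological.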

Additional observations from a re-analysis of the deposited data

How the results depend on the processing

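Between 40 and 43 members were called in nucleoplasm, and the median log2 fold change stayed between -2.39 and -2.22, when each library was left out in turn. edgeR called 41 and DESeq2 40. With the replicate number as a term (replicate block), 41 were called and the median was -2.32, and no other call changed. Libraries with the same number correlated by 0.0871, 0.0533 and 0.0626 in their deviations, each best with its own number, too weakly to treat the numbers as pairs. With the same total per library, 23 were called, 4 were higher in chromatin at any fold and the median was -1.86, with RPL10 at 0.10, RPL28 at 0.20 and RPL37A at 0.35, and with the same ERCC total 0 were higher and the median was -3.64. A minimum mean of 50 normalized counts removed RPL3L and left 0 higher. With a Jaccard index of 0.2 as the minimum (67 genes), 1 was called in chromatin, 2 were higher at any fold and the nucleoplasm share was 3.47%. With a 2-fold minimum, 1 was called in chromatin, RPL3L, which had passed the filter through that fraction. RPS27L had -1.30 with the same ERCC total and -0.11 to 0.10 with 1 library left out. The 19 members with under 20% shared windows, an alternative chosen after seeing the data, had a median of -2.60. The cause of these changes was not tested beyond the construction of each alternative. With 3 libraries a fraction, values of RPL3L rest on at most 19 reads a library. The paper reports unequal read numbers for the HAP1 long-read replicates, which TPM values do not show.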
